A study of Mus musculus with 62 samples.

Results

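Chromatin regions at 9 genes that encode TEAD transcription factors and their partners were followed across mouse skeletal muscles and 2 models of muscle remodelling. The genes were Tead1, Tead2, Tead3 and Tead4, the vestigial-like cofactors Vgll2, Vgll3 and Vgll4, and the coactivators Yap1 and Wwtr1 (also called Taz). A region was taken when the gene name given to it by the authors, that of the nearest start site, was 1 of these 9. This gave 997 of 596282 regions in 16 lists of histone mark regions, and 17 further regions in 4 lists of differential regions (1014 of 601616 in all 20 lists). The marks were H3K27ac, an acetylation of histone H3 found at active enhancers and promoters, and H3K4me2, a dimethylation of histone H3 found at active and poised ones, both measured by ChIP-seq with 2 replicates per mark and group.

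There were 8 groups, all of male mice with C57BL/6 as the labelled strain. 4 were muscles of sedentary wild-type mice: EDL (extensor digitorum longus, rich in fast glycolytic fibers), Quad (quadriceps), Sol (soleus, rich in slow oxidative fibers) and Dia (diaphragm). The other 4 were quadriceps. Ex mice had wild-type genotype and free access to running wheels from 8 weeks of age for 4 weeks, with harvest 4 to 6 hours after the last bout, and Sed mice were their sedentary wild-type controls. mTg mice were sedentary and carried a Pgc1a transgene driven by a muscle creatine kinase promoter, PGC1a being a coactivator of mitochondrial genes, and Wt mice were their sedentary wild-type littermates. A Quad sample came from 1 animal and an EDL, Sol or Dia sample from a pool of 3 animals, so a region reports all nuclei of the tissue, and fewer nuclei of a type and less mark per nucleus cannot be told apart.

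TEAD proteins bind the MCAT element and do little alone. They activate genes when YAP or TAZ enters the nucleus, which the Hippo kinases LATS1 and LATS2 prevent by phosphorylation. VGLL2 is a TEAD cofactor of skeletal muscle, VGLL4 competes with YAP for TEAD, and VGLL3 is a cofactor best known in stromal cells. In muscle, TEAD1 is known for MCAT-dependent genes of the contractile apparatus and YAP for fiber growth and satellite cells.

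Libraries held 11.7 to 24.2 M tags for H3K27ac, 6.41 to 22.7 M for H3K4me2 and 7.72 to 22.9 M for input. Levels are log2 values that the authors normalized separately within each list. They were divided by region width and set against the other regions of the same list as a percentile, and no test was run between lists. The labelled tissue carried H3K27ac at all 7 muscle fiber markers (Acta1, Ckm, Des, Ryr1, Ttn, Actn2 and Mylpf) in each of the 8 groups. The H3K4me2 lists of the transgenic pair went against the H3K27ac lists. Of the 1828 regions with higher H3K27ac in mTg, 63.8% had an H3K4me2 region in the list labelled Wt and 20.8% in the list labelled mTg, which also held the shallowest library (6.41 M tags). H3K4me2 is therefore given for those 2 lists as labelled and no direction is drawn from it.

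The 9 genes differed widely in how much marked chromatin was assigned to them. Tead1 had 14 to 26 H3K27ac regions per list and Vgll4 15 to 25, while Vgll2 had 5 to 14, Wwtr1 4 to 8, Yap1 and Tead4 3 to 5 each, Vgll3 1 to 4 and Tead3 1 to 3. Tead2, a TEAD best known from embryonic tissue, had H3K27ac in 3 of 8 lists (EDL, Dia and Ex), with 1 region each, although its start site carried H3K4me2 in 8 of 8. The Tead1 regions lay within the gene (130 of 142) or between genes (12). Of 160 Vgll4 regions, 69 lay in another gene and 43 were over 100 kb from the start, and over both marks 94 Vgll4 regions lay in the neighbouring autophagy gene Atg7. Likewise 37 Vgll2 regions lay in Ros1, a receptor tyrosine kinase gene, so the assignment of these regions to Vgll4 and Vgll2 rests on distance alone. Over all lists the 536 H3K27ac regions of the 9 genes had a median percentile of 54.2 and the 461 H3K4me2 regions one of 46.4, so their typical level was close to that of all regions. All 997 lay above input, which the authors' calling at 2-fold over input requires. The medians over input were 2.25 (H3K27ac) and 2.15 (H3K4me2) on the log2 scale.

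The start sites of the coactivators and of Tead1 were well acetylated in every list. The Tead1 start site region lay at the 81.7th percentile in Quad, the lowest of the 8 lists, and at the 98.7th in Sed, the highest. Its levels per kb (log2) were 7.86 and 7.81 in the EDL replicates, 7.09 and 6.39 in Quad, 7.61 and 7.37 in Sol, and 8.29 and 8.39 in Dia. They were 7.52 and 8.61 in Sed, 7.81 and 7.09 in Ex, 6.85 and 6.96 in Wt, and 7.63 and 6.52 in mTg. Dia thus gave the highest pair of the 4 muscles and Quad the lowest, and the replicates of Quad, Sed, Ex and mTg lay further apart than those of EDL, Sol, Dia and Wt. The Yap1 start site lay between the 89.0th percentile (mTg) and the 95.6th (Sed), and that of Wwtr1 between the 76.4th (mTg) and the 94.9th (Sol). For Yap1 the level per kb was 7.61 and 7.78 in EDL, 7.14 and 7.23 in Quad, 7.07 and 7.18 in Sol, and 7.81 and 7.95 in Dia. For Wwtr1 it was 7.20 and 7.21 in EDL, 7.14 and 6.95 in Quad, 7.54 and 7.37 in Sol, and 7.46 and 7.54 in Dia. These 2 coactivator start sites were acetylated in every muscle, and after centring on all matched regions no pair of muscles was 2-fold apart at either.

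The start sites of the other TEAD and VGLL genes ranged from high (Vgll4) to low (Tead2). Tead3 lay between the 72.1st percentile (Sed) and the 92.8th (Wt), and Tead4 between the 57.8th (Wt) and the 69.7th (Dia). The Vgll4 region, at a start site inside the gene, lay between the 82.3rd (Wt) and the 96.0th percentile (Quad). Vgll2 had a start site region in 7 of 8 lists, between the 59.1st percentile (Sed) and the 81.7th (Wt), and none in Ex. Vgll3 ranged most, from the 32.2nd percentile in EDL (5.60 and 5.76 per kb) to the 84.3rd in Wt (6.30 and 6.25 per kb). The Tead2 start site, where marked, lay at the 6.61st (Ex) to the 21.4th percentile (Dia), the lowest of all members.

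The bases upstream of 4 of these acetylated starts are shown because each holds the MCAT core to which TEAD proteins themselves bind. The core searched was GGAATG on both strands, in RefSeq promoters (GRCm38.p6) of 250 bases before to 50 after a start. It was found for 5 of the 7 members with an entry, Tead3, Vgll3, Vgll4, Wwtr1 and Yap1. Counted by promoter it was 7 of 10, against 14.7% of 32851 RefSeq promoters. The Wwtr1 promoters overlap and hold the same match, and the Tead3 promoters overlap in part, so the 10 are not separate. No share by gene was computed over all genes. Tead1 and Tead4 had no entry. Sequences read 5′ to 3′ along the gene, end at the base before the first RefSeq start, and carry the MCAT core in capitals (CATTCC is its reverse complement). The match lies 93 bases before the first start of Yap1, 130 before that of Wwtr1, 176 before that of Tead3 and 57 before that of Vgll3.
Yap1, chr9:8004639-8004846, minus strand: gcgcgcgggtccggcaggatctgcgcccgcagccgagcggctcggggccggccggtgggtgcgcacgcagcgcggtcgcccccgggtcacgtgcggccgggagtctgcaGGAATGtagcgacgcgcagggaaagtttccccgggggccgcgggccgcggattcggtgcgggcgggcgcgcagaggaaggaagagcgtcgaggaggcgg
Wwtr1, chr3:57575911-57576160, minus strand: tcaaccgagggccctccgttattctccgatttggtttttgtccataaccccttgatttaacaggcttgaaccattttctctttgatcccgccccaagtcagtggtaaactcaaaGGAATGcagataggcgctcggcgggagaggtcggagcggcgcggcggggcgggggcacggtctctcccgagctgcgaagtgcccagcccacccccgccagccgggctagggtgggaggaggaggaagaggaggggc
Tead3, chr17:28350806-28351055, minus strand: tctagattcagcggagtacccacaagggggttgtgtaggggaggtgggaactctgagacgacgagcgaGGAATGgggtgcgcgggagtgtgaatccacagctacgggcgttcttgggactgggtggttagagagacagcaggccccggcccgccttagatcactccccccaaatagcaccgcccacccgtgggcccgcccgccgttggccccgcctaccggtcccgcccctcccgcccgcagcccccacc
Vgll3, chr16:65814939-65815188, plus strand: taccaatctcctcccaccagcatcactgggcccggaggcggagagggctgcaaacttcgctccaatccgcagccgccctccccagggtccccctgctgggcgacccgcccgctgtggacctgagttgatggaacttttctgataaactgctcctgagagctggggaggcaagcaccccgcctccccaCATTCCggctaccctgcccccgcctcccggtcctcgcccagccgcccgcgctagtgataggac

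A comparison of the 4 muscles asked which regions were shared by fast and slow muscles. The lists merged to 79 H3K27ac regions of the 9 genes. Of these 38 were called in all 4 muscles (48.1%), against 37.4% of 51592 merged regions over the genome. For H3K4me2 it was 31 of 87 (35.6%), against 39.6% of 56763. Tead4 had the highest share (4 of 5 H3K27ac regions), followed by Vgll2 (7 of 12), Wwtr1 (4 of 7), Vgll4 (10 of 19), Vgll3 (1 of 2), Tead1 (9 of 23), Yap1 (2 of 6), Tead3 (1 of 4) and Tead2 (0 of 1). Regions in EDL and Quad but not in Sol or Dia numbered 5 (6.33%, against 6.17% over the genome), and there was 1 in Sol and Dia only (1.27%, against 2.08%). Of the 18 regions called in 1 muscle, 6 were in Sol (7.59% of the 79, against 6.12% over the genome), 5 in Quad (6.33%, against 13.2%), 5 in Dia (6.33%, against 6.31%) and 2 in EDL (2.53%, against 6.10%).

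Most muscle-restricted regions were weak. The strongest of EDL and Quad was a Tead1 intron region at chr7:112804837-112808224, with levels per kb of 6.43 and 6.77 in EDL and 5.99 and 5.64 in Quad. The 1 region of Sol and Dia lay in Yap1 at chr9:7991953-7993575, at 5.0 and 5.08 in Sol and 5.56 and 5.93 in Dia. The strongest region of a single muscle was in Vgll3 in Dia (5.82 and 5.50 per kb), at the 28.9th percentile of its list. The strongest in Sol was a Vgll2 region within Ros1, 5.35 and 5.12 per kb, at the 23.3rd percentile.

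**Figure D1:**
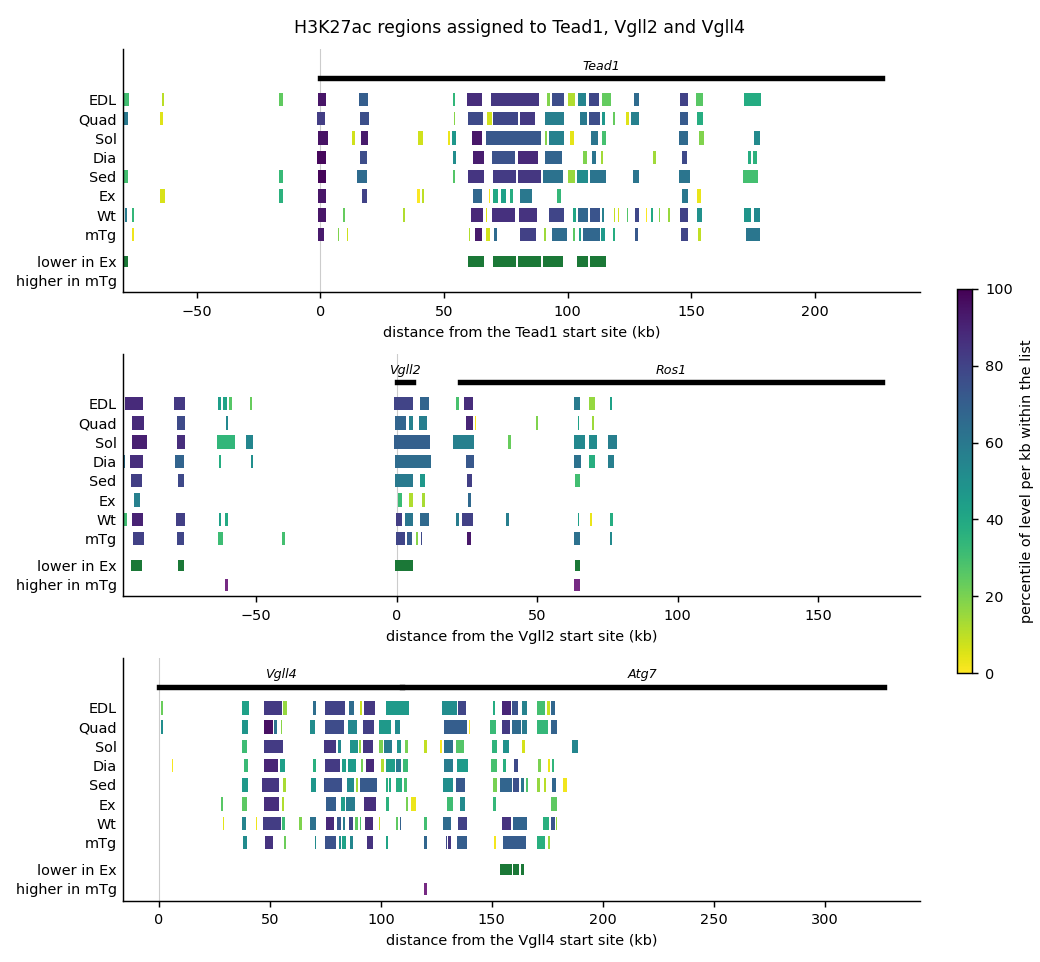
H3K27ac regions assigned to Tead1, Vgll2 and Vgll4 by distance from the RefSeq start site in kb (x axis, gene orientation), 1 row per list and coloured by percentile of the level per kb, with the gene bodies above and the regions of the differential lists below. 6 of the 7 Tead1 regions that were lower in Ex lie side by side within the gene, and the 3 Vgll4 regions lie in Atg7.

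For regions matched between lists (50% reciprocal overlap), levels per kb were compared after centring on all matched regions, and a region was counted when over 2-fold apart with non-overlapping replicates. The clearest contrast was at Vgll4, where 3 regions in the neighbouring gene Atg7 were higher in EDL than in Sol, out of 40 matched regions of the 9 genes (against 2.88% of all matched regions). The first, at chr6:114804346-114806353, stood at 6.19 and 6.44 per kb in EDL and at 4.88 and 4.40 in Sol, 2.65-fold apart. The second, at chr6:114811459-114815365, stood at 7.42 and 7.66 in EDL and 5.89 and 5.87 in Sol, 2.64-fold apart. The third, at chr6:114831460-114835243, stood at 6.90 and 7.30 in EDL and 5.21 and 5.43 in Sol, 2.86-fold apart. EDL lay above Sol in both replicates at all 3.

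Other muscle pairs gave few such regions. The third of these Vgll4 regions was also 2.09-fold higher in EDL than in Dia (1 of 38 matched, against 3.11%). Quad against Sol gave 2 of 31 (against 3.74%): the first Vgll4 region, 2.51-fold higher in Quad (6.17 and 5.63 against 4.88 and 4.40), and a weak Wwtr1 region at chr3:57501515-57502471, 2.16-fold higher in Sol. Quad against Dia gave 2 of 30 (against 4.26%), the Tead1 start site, 2.20-fold higher in Dia, and a Tead1 intron region at chr7:112784299-112787348, 2.02-fold higher in Quad. The Quad replicates themselves were 7.09 and 6.39 at that start site, and 6.27 and 5.57 at the intron region. EDL against Quad gave 0 of 41 (0.644% over the genome) and Sol against Dia 0 of 40 (1.65%). Among quadriceps controls, Quad against Sed gave 1 of 37, again the Tead1 start site (1.07%), Quad against Wt 0 of 35 (1.36%) and Sed against Wt 0 of 35 (0.495%). For H3K4me2 the 11 pairs of lists gave 3 regions of the 9 genes, where 1.08% of all matched regions of the 11 pairs were called. They were 1 of 28 between Quad and the list labelled Wt (2.69% of all matched regions of that pair) and 2 of 29 between Sed and the list labelled Wt (1.78%). Without Quad H3K27ac replicate 1, the number of such calls rose from 15 to 23 over all pairs and both marks. The share over all matched regions also rose in each H3K27ac pair with Quad.

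**Figure D2:**
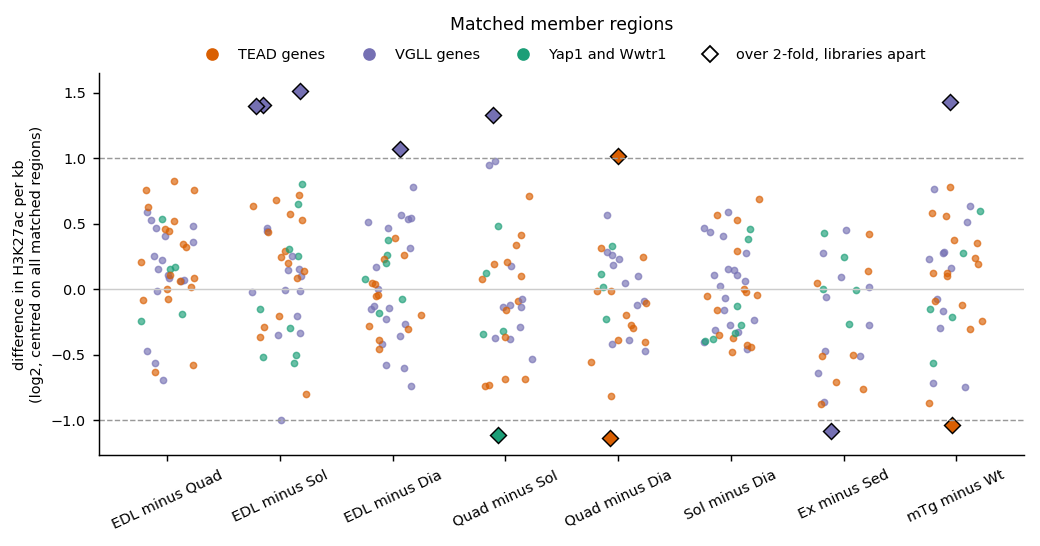
Difference in H3K27ac per kb (y axis, log2, centred on all matched regions) for each matched region of the 9 genes in 8 pairs of lists (x axis), with dashed lines at 2-fold and diamonds for regions over 2-fold apart whose replicates do not overlap. The 3 highest points of EDL minus Sol are Vgll4 regions, 2.64- to 2.86-fold apart.

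Voluntary running was set against sedentary quadriceps to ask which regions changed with exercise. The deposited list of regions with lower H3K27ac in Ex held 14 regions of the 9 genes, 7 of Tead1, 4 of Vgll2 and 3 of Vgll4, and the list of higher regions held none. As merged Sed and Ex regions this was 14 of 75 (18.7%), against 5.43% of 42011, and for higher regions 0 of 75, against 0.909%. By gene, 7 of 20 merged Tead1 regions, 4 of 6 Vgll2 regions and 3 of 25 Vgll4 regions were in the list of lower regions. Each region is counted singly in these shares. Most of these Tead1 regions and the 3 Vgll4 regions lie side by side, so the 14 are not independent units. 3 of the 9 genes had such a region, against 10.6% of the 14815 genes with H3K27ac in Sed or Ex (2.34% for higher regions). Regions in these lists had been selected by the authors for differing in these same libraries, so the tests that follow are not independent evidence of direction.

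All 14 regions were lower in both Ex replicates than in both Sed replicates, with no overlap. In limma over the whole list, 14 of 14 had an adjusted p under 0.05, as did 99.7% of the 2280 regions. Their median difference was −0.89 on the log2 scale, against −0.76 over the list. limma estimated 1 variance for the whole list, so the standard error was 0.215 for each. With 2 against 2 libraries an exact permutation test cannot go below p = 0.333. Percentages below are converted from the deposited log2 values, which are taken to shrink differences, so they do not measure the change in tags.

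Tead1, the TEAD gene with the most acetylated chromatin, was lower over 6 neighbouring intron regions. The region at chr7:112749106-112758596 stood at 10.12 and 10.003 in Sed and at 9.14 and 8.88 in Ex, and fell by 51.8% (log2 difference −1.05, limma adjusted p = 3.08e-05). Its neighbour at chr7:112759407-112768496 stood at 10.07 and 10.02 in Sed and at 9.22 and 8.76 in Ex, and fell by 51.9% (−1.06, limma adjusted p = 2.94e-05). These 2 regions had the highest levels of the 14. Further along the gene the region at chr7:112769589-112777431 differed by −1.01 and that at chr7:112788579-112794795 by −0.94. The regions at chr7:112739157-112745460 and chr7:112783157-112787549 differed by −0.89 and −0.72. The seventh, between genes at chr7:112599591-112601626 and upstream of Tead1, had the smallest difference (6.39 and 6.29 in Sed, 5.78 and 5.76 in Ex, −0.57, limma adjusted p = 9.14e-03). It was the weakest call, with an adjusted p of 0.0636 without Ex replicate 1 and 0.0800 without Ex replicate 2. The Tead1 start site was not in the list, and its matched level differed by −0.51 (centred), with overlapping replicates.

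Vgll2, the muscle cofactor, had the largest single difference. The intergenic region at chr10:51944663-51946957 stood at 7.67 and 7.80 in Sed and at 6.77 and 6.51 in Ex, and fell by 53.2% (−1.09, limma adjusted p = 1.78e-05). The intergenic region at chr10:51928023-51931991, the strongest Vgll2 region per kb in EDL, Sol, Dia, Sed and Wt, stood at 8.86 and 8.62 in Sed and at 8.02 and 7.51 in Ex (−0.98, limma adjusted p = 7.59e-05). The region over the gene itself at chr10:52021924-52028378 differed by −0.81, and a region in Ros1 at chr10:52085903-52087771 by −0.66. The last had an adjusted p of 0.0749 without Ex replicate 2. Thus the start of Vgll2 and its distal regions on both sides were lower together.

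The 3 Vgll4 regions, which lay side by side in Atg7, were lower to a similar extent. They differed by −0.89 at chr6:114807804-114810272 (7.87 and 7.75 in Sed, 6.91 and 6.93 in Ex), by −0.75 at chr6:114810995-114816213 and by −0.70 at chr6:114805268-114806687. The last 2 overlap regions named above as higher in EDL than in Sol. No region within Vgll4 was in the list. Another Atg7 region, at chr6:114790582-114793199, was not in the list but was 2.12-fold lower in Ex per kb (5.46 and 5.21 per kb against 6.62 and 6.41), the 1 such region of 24 (against 3.17%). The Ex region is wider than its Sed match, chr6:114791280-114793015, and part of this fold comes from dividing by width.

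**Figure D3:**
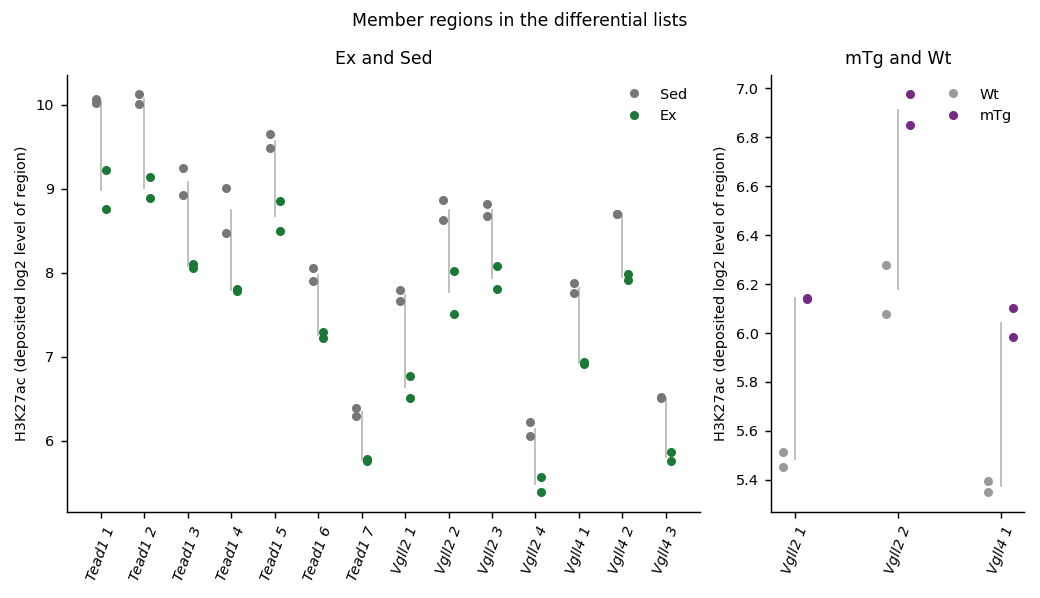
H3K27ac level of each region of the differential lists (y axis, deposited log2 level of the whole region) in each library, with 2 points per group and a grey line between group means, numbered within a gene from the lowest to the highest difference. All 14 regions are lower in Ex than in Sed, and all 3 are higher in mTg than in Wt.

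The same 14 regions were marked in other muscles. All 14 had an H3K27ac region in EDL, Quad, Sed and Wt, 13 in mTg, 12 in Dia, 11 in Sol and 6 in Ex. Over the whole list of lower regions the shares were 90.2% in EDL, 88.4% in Quad, 91.8% in Wt, 73.4% in mTg, 60.04% in Dia, 56.0% in Sol and 45.9% in Ex. The H3K4me2 lists showed 9 of 14 in Sed (51.5% over the list of lower regions) and 4 of 14 in Ex (40.4%). All 7 Tead1 regions carried H3K4me2 in Sed and 3 did in Ex.

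Accessible sites within these regions are shown because they mark where factors may bind. Of the 17 regions in the differential lists, 15 held at least 1 site of open chromatin in control quadriceps, measured by ATAC-seq. The share over all regions of these lists was not computed, so 15 of 17 is not read as a trait of these regions. Of all Quad H3K27ac regions, 57.2% held a site. 4 motifs were searched on both strands in the sites of quadriceps regions of the 9 genes, each site being 195 bases long. The MCAT core was in 17.5% of 57 sites, against 11.5% of 44911 sites. The E-box CAGCTG of MYOD was in 24.6% (against 21.1%) and the nuclear receptor half-site AGGTCA in 22.8% (against 15.97%). For MEF2 the pattern searched was CTANNNNTAG, with any base at N, found in 10.5% (against 4.84%). Being open at N, this pattern is looser than a MEF2 site, and not every stretch marked as MEF2 need be one. The most accessible site of the 14 regions lay in the Tead1 region at chr7:112759407-112768496 (94.9th percentile). It held 2 half-sites in opposite orientation around 1 base, in capitals. A match describes letters only, not binding.
Tead1, half-sites, chr7:112763649-112763843, plus strand: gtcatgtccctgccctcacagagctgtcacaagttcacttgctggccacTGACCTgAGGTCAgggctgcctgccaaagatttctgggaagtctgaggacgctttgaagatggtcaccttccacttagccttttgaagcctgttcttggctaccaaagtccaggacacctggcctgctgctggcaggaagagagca
Tead1, MCAT core, chr7:112756702-112756896, plus strand: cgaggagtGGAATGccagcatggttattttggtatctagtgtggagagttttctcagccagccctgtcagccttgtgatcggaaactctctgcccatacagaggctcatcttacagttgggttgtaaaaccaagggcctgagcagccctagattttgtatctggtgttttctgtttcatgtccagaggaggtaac
Tead1, MEF2 motif, intergenic region, chr7:112600280-112600474, plus strand: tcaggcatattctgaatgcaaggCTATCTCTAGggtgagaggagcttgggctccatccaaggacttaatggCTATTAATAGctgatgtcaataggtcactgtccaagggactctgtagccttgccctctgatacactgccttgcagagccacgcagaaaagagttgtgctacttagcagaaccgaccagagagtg
Vgll2, half-site, chr10:51945839-51946033, plus strand: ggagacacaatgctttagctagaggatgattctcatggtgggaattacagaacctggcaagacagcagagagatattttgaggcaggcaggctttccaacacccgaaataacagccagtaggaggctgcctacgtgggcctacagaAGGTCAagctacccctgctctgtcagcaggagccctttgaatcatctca
Vgll4, half-site in Atg7, chr6:114809093-114809287, plus strand: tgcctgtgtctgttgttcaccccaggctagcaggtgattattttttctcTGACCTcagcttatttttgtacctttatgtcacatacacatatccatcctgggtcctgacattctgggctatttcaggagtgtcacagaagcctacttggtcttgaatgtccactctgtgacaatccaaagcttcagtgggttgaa

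Transgenic Pgc1a was set against wild-type littermates to ask which regions changed with PGC1a. The list of regions with higher H3K27ac in mTg held 3 regions of the 9 genes, 2 of Vgll2 and 1 of Vgll4, and the list of lower regions held none. As merged Wt and mTg regions this was 3 of 94 (3.19%), against 3.27% of 55876, so the share was that of the genome. For lower regions it was 0 of 94, against 1.51%. By gene, 2 of the 9 had a higher region, against 9.22% of 15286 genes, and none a lower one (4.38%). In limma all 3 had an adjusted p under 0.05, as did 100% of the list.

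Vgll2 was higher at a pair of distal regions. At chr10:52085587-52087854, in Ros1, the level was 6.08 and 6.28 in Wt and 6.98 and 6.85 in mTg, a rise of 66.4% (0.73 ± 0.13 SE, limma adjusted p = 9.39e-06). This is the region that was lower in Ex (−0.66), and in both comparisons the replicates did not overlap. At chr10:51961276-51962392, between genes, the level was 5.51 and 5.45 in Wt and 6.14 in both mTg replicates (0.66 ± 0.12 SE, limma adjusted p = 2.43e-05). In the lists called against input this last place had an H3K27ac region in EDL, Quad, Sol and Wt but none in mTg. The Vgll4 region at chr6:114849259-114850445, in Atg7, stood at 5.35 and 5.40 in Wt and at 6.10 and 5.98 in mTg (0.67 ± 0.12 SE, limma adjusted p = 2.17e-05). Of the 4 muscles only Sol had an H3K27ac region there, at 5.15 and 4.40 per kb (9.08th percentile), while the matched mTg region was at 5.96 and 5.66.

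The ATAC site in the Vgll2 region that moved in opposite directions is shown because it is the only site in the region. It lay at the 49.7th percentile of accessible sites and held 1 half-site, in capitals.
Vgll2, half-site in Ros1, chr10:52086718-52086912, plus strand: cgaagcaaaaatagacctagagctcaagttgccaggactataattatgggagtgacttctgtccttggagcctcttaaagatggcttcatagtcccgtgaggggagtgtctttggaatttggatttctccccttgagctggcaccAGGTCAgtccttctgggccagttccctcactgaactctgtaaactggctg

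Of regions matched between the lists, 2 of 34 were over 2-fold apart between mTg and Wt (against 4.64%). These were the same Vgll4 region, 2.69-fold higher in mTg, and a weak Tead1 intron region at chr7:112832114-112833353, 2.06-fold lower in mTg (4.25 and 3.45 per kb against 5.04 and 4.88). The strong Tead1 intron regions that were lower in Ex were not in either list for mTg.

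Levels summed over all regions of a gene showed the same genes from another side. Each library was centred on genes with a start site region in all 8 groups, and a sum moves with the length covered, which is given beside it. Tead1 stood at 3.69 and 3.61 (log2) in Sed over 71.0 kb and at 2.29 and 2.09 in Ex over 30.7 kb. In the other groups Tead1 lay, as mean ± SD (n = 2), at 3.63 ± 0.08 in EDL, 3.51 ± 0.16 in Sol, 3.45 ± 0.11 in Dia, 3.35 ± 0.11 in Wt, 3.34 ± 0.45 in Quad and 3.07 ± 0.21 in mTg. Neighbours in this order overlapped or lay within their spread, apart from Ex. Set against each other, mTg (3.22 and 2.92) and Wt (3.27 and 3.43) did not overlap. The difference of mTg minus Wt was −0.28, or −0.13 per covered kb. Vgll2 stood at 1.70 and 1.42 in Sed over 18.2 kb and at −0.19 and −0.61 in Ex over 6.81 kb. It was highest in Sol (3.25 and 2.83 over 48.3 kb). Tead4 stood at 0.54 and 0.20 in Sed over 10.2 kb and at −0.36 and −0.53 in Ex over 5.61 kb. Vgll4 stood at 3.30 and 3.29 in Sed over 67.4 kb and at 2.65 and 2.74 in Ex over 39.6 kb. Per covered kb, Ex minus Sed was −0.08 for Tead4 and 0.03 for Vgll4. How many of all genes had a lower sum in Ex was not computed. Yap1 stood at 1.17 and 1.25 in Sed over 10.03 kb and at 0.39 and 0.28 in Ex over 5.98 kb, against 0.87 and 1.18 in Wt over 11.8 kb and 1.70 and 1.76 in mTg over 15.02 kb.

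Vgll3 went the other way, and Wwtr1 differed little between Ex and Sed but was lower in mTg than in Wt. Vgll3 was higher in Ex (0.46 and 0.84 over 9.74 kb) than in Sed (−1.39 and −0.98 over 3.24 kb), and lower in mTg (−2.28 and −2.03 over 2.27 kb) than in Wt (−0.25 and −0.20 over 7.41 kb). Wwtr1 stood at 1.52 and 1.80 in Ex over 14.5 kb against 1.49 and 1.45 in Sed over 18.6 kb, and at 0.10 and 0.33 in mTg over 7.26 kb against 1.24 and 1.13 in Wt over 15.2 kb. Per covered kb the differences between Ex and Sed were smaller for Tead1, Vgll2, Yap1 and Vgll3 and larger for Wwtr1, and those between mTg and Wt were smaller for Vgll3, Wwtr1 and Yap1. For Ex minus Sed they were −0.36 for Tead1, −0.63 for Vgll2, −0.26 for Yap1, 0.07 for Vgll3 and 0.41 for Wwtr1, and for mTg minus Wt they were −0.50 for Vgll3, −0.18 for Wwtr1 and 0.09 for Yap1.

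**Figure D4:**
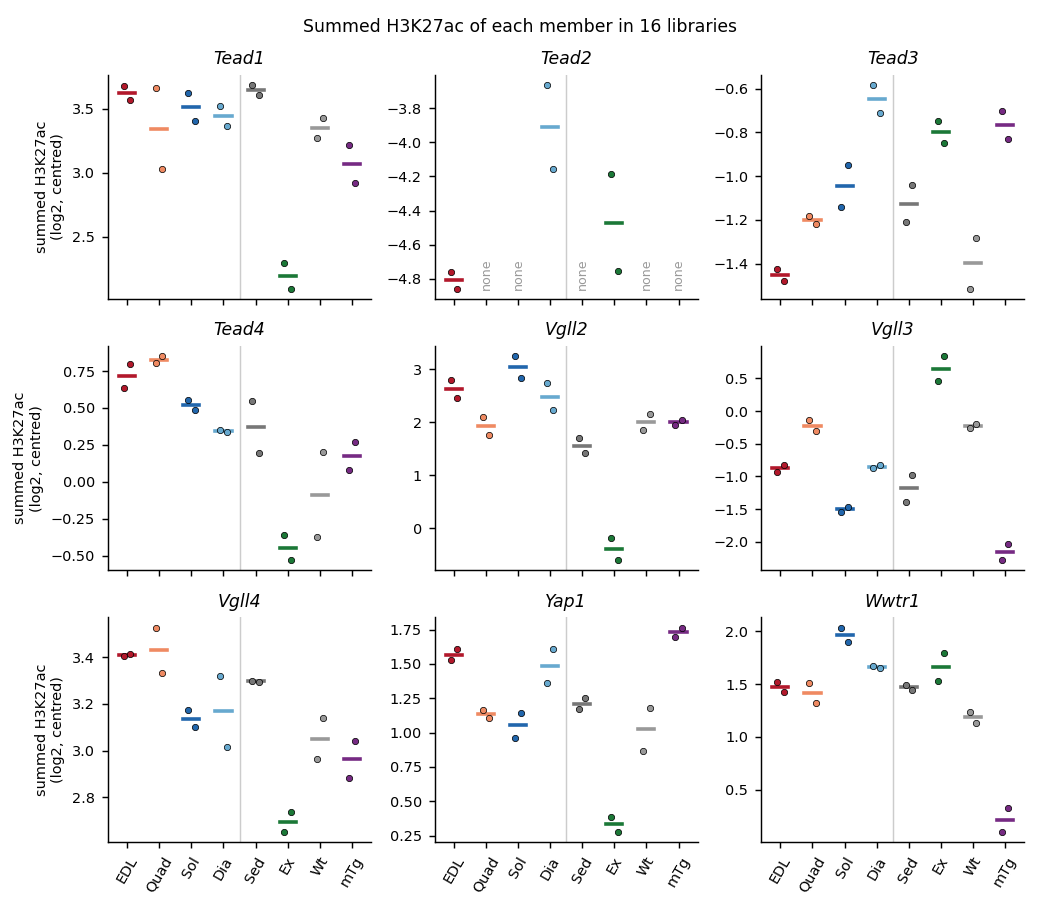
Summed H3K27ac of each gene (y axis, log2, centred per library) in the 16 libraries of 8 groups, with points for replicates, bars for their mean and "none" where the gene had no region. Tead1 (2.19), Tead4 (−0.45), Vgll2 (−0.40), Vgll4 (2.70) and Yap1 (0.33) are lowest in Ex. Vgll3 and Wwtr1 are lowest in mTg, at −2.16 and 0.21.

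Markers of other cell types moved in the same comparisons. The summed level of the 7 muscle fiber genes was 4.83 and 4.47 in Sed and 3.46 and 3.32 in Ex, and 4 of the 7 (Actn2, Des, Ryr1 and Ttn) had a region in the list of lower regions. The fast fiber genes Myh4 and Pvalb stood at 3.23 and 2.61 in Sed and at 1.52 and 1.38 in Ex, both with a region in that list. The 5 fibroblast genes stood at 2.18 and 2.51 in Sed and 3.55 and 3.96 in Ex, with 5 of 5 detected in Ex and 4 of 5 in Sed. The 5 macrophage genes stood at −0.83 and −0.73 in Sed and 0.70 and 1.17 in Ex, with 4 detected in Sed and 5 in Ex. The 5 endothelial genes, all detected in both, stood at 3.17 and 3.05 against 3.46 and 3.63. The 3 genes of satellite cells and myoblasts stood at 1.51 and 1.19 in Sed and −0.20 and −0.60 in Ex, with Myod1 in the list of lower regions. All 3 were detected in Sed and 2 in Ex. The sum of the 3 slow fiber genes went the other way from the fast ones, from −2.97 and −3.003 in Sed to −1.404 and −1.49 in Ex. Of these 3 genes, 1 was detected in Sed and 2 in Ex. A sum holds detected genes only, so where these counts differ the sums cover different genes. As sums, Tead1, Tead4, Vgll2, Vgll4 and Yap1 thus moved in the direction of the general muscle fiber, fast fiber and satellite cell lists. Vgll3 moved in that of the fibroblast, macrophage, endothelial and slow fiber lists. The part of cell makeup in these results was not tested. Between mTg and Wt, fibroblast genes stood at 1.38 and 1.63 against 2.94 and 2.59, with regions of Col3a1 and Pdgfra in the list of lower regions. Macrophage genes stood at −0.32 and 0.03 (4 of 5 detected) against 0.89 and 0.57 (5 of 5). Muscle fiber genes stood at 4.92 and 5.05 in mTg against 4.97 and 5.004 in Wt. These sums measure acetylation, not cell numbers. In their own qPCR of quadriceps mRNA, the authors reported no change of immune, vascular, satellite cell and myogenic markers in Ex. For mTg they reported higher macrophage and vascular markers. Sox10, a defining Schwann cell gene, had no H3K27ac region in any of the 8 lists.

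**Figure D5:**
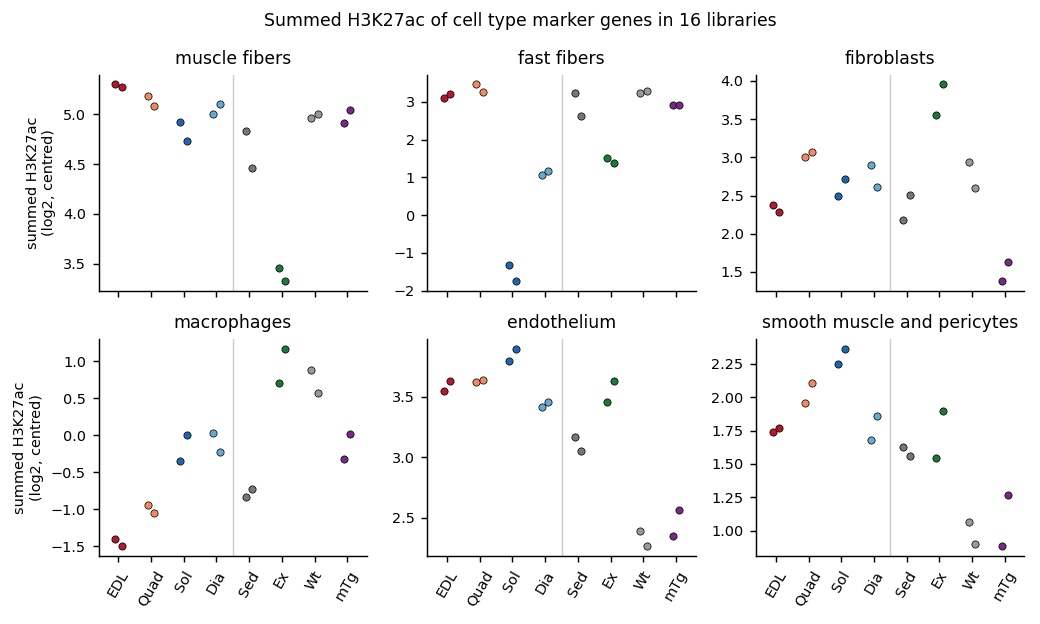
Summed H3K27ac of 6 lists of cell type marker genes (y axis, log2, centred per library) in the 16 libraries of 8 groups, 1 point per library. Ex lies below Sed for muscle fiber and fast fiber genes and above it for fibroblast and macrophage genes, and mTg lies below Wt for fibroblasts (1.38 and 1.63 against 2.94 and 2.59).

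The wider Hippo pathway was read from a list of 20 kinases, adaptors and upstream regulators. H3K27ac was assigned to 18 of the 20 genes in all 8 lists. In Ex, 4 of 20 had a lower region (Amot, Amotl1, Lats1 and Sav1) and none a higher one. In mTg, 9 of 20 had a higher region (Amot, Frmd6, Lats1, Mob1b, Ptpn14, Sav1, Taok1, Wwc1 and Wwc2), and Nf2, the merlin tumor suppressor gene, had a lower one (−0.64). The backgrounds are the shares of genes given above, 10.6% for lower in Ex and 9.22% for higher in mTg. Amot, whose product binds YAP at cell junctions, had 4 higher regions in mTg, with differences from 1.01 to 1.37, and 2 lower regions in Ex (−0.77 and −0.79). The gene of the kinase LATS1 had 1 region at chr10:7687123-7690145 that stood at 6.83 and 7.09 in Wt and 7.90 and 7.81 in mTg (0.90 ± 0.13 SE). The overlapping region stood at 7.10 and 6.99 in Sed and 6.13 and 6.36 in Ex (−0.80 ± 0.21 SE).

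Of 18 genes known as targets of YAP or of TEAD at MCAT elements, 13 had H3K27ac in all 8 lists. In Ex, 4 of 18 had a lower region, namely Ankrd1 (−0.50), Crim1 (−0.93 and −0.63), Des (−0.81) and Tgfb2 (−0.69 and −0.64), and none a higher one, against 10.6% and 2.34% of all genes. In mTg, Ptpn14 had a higher region (0.53) and Tgfb2 2 lower ones (−0.65 and −0.52), which makes 1 of 18 in each direction, against 9.22% and 4.38% of all genes. Tgfb2 was thus lower in both models. All 27 regions of both gene lists had an adjusted p under 0.05 in limma (largest 0.0208), as had 100% of the list of lower regions in mTg.

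Over the 8 groups, the genes whose summed H3K27ac profile was closest to that of Tead1 were Map3k20 (Euclidean distance 0.37 in log2), Mapt (0.40), Mapkapk2 (0.40), Hhatl (0.44) and Rreb1 (0.49), against a median of 1.52 over 5541 genes with a start site region in all groups. Vgll4 was 132nd (0.78), Tead4 157th (0.81) and Yap1 425th (0.98), while Tead3 (1.77), Wwtr1 (1.77) and Vgll3 (3.15) were far from it.

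MED1 is a mediator subunit, part of a coactivator complex found at strong enhancers. Its sites were rare at H3K27ac regions over the genome, as at these genes. The share at these genes was below that of all H3K27ac regions in each muscle. With counts of 0 to 3 regions this does not set the 9 genes apart. In Sol, 3 of 65 H3K27ac regions of the 9 genes held a MED1 site, at the starts of Tead1 and Vgll2 (chr10:52022535-52022745) and within Yap1, against 5.34% of all Sol regions. In Quad it was 1 of 66, in Vgll4 (against 3.76%), in EDL 0 of 69 (1.12%) and in Dia 0 of 66 (4.16%). MED1 sites came from 1 library per muscle. Quadriceps ATAC sites lay in 45 of 66 Quad regions of the 9 genes (68.2%, against 57.2% of all Quad regions), including 13 Tead1, 12 Vgll4 and 6 Vgll2 regions.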

How the data were processed

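ChIP-seq of H3K27ac and H3K4me2 was deposited as region lists for 8 groups with 2 replicates per mark. Reads of 75 bases, single-end, were aligned by the authors to mm10 with Bowtie (unique hits), 1 tag per position was kept, and the authors took regions at 2-fold over input from both replicates together with HOMER and DESeq2. The same tools gave the 4 differential H3K27ac lists, after quantile normalization. Levels in the deposited lists are log2 values, taken to be the regularized logarithm that the authors' tools write, which shrinks differences. The score and the adjusted p-value columns are the authors' own and were used only as filters and ranks, as was the authors' log2 fold over input in 1 alternative (at least 4-fold). The fold changes and p-values of the authors' own Ex and mTg comparisons were not printed, and their adjusted p-value served only as a stricter filter (under 0.001). The deposited ATAC signal of control quadriceps gives normalized tags per site, with libraries pooled by the authors. The list coordinates lay within the chromosomes of the RefSeq assembly GRCm38.p6, and start site regions lay at its starts. NFAT sites, footprints and the exercised and transgenic ATAC lists are not used here.

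limma 3.58.1 (R 4.3.3) was run on each whole differential list with Benjamini-Hochberg adjustment at 0.05 and tested on simulated data. Regions named were all members of the differential lists, start site and strongest regions, regions over 2-fold apart and the strongest muscle-restricted ones. Members and gene lists were chosen with earlier results of these data known. Sequences were read with pysam 0.24.0 and samtools 1.23.1. Replicates are separate animals or pools. 1 sequence is not reported here.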

Additional observations from a re-analysis of the deposited data

Results flagged for a closer look

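In each case below, both replicates moved one way in Ex against Sed and both moved the other way in mTg against Wt. The difference between the 2 comparisons was not tested, since they share no libraries and were normalized separately. H3K27ac at the Vgll2 region in Ros1 (chr10, near 52085587) was lower by a log2 difference of −0.66 in Ex and higher by 0.73 in mTg. The Lats1 region did the same (−0.80 in Ex, 0.90 in mTg). Summed H3K27ac of Yap1 differed by −0.88 in Ex and by 0.71 in mTg. Summed H3K27ac of Vgll3 differed by 1.83 in Ex and by −1.93 in mTg, and that of Wwtr1 by 0.19 in Ex and by −0.97 in mTg. The Wwtr1 difference in Ex was small beside the pooled SD of its replicates (0.14). Per covered kb the Vgll3 values were 0.07 and −0.50, the Wwtr1 values 0.41 and −0.18, and the Yap1 values −0.26 and 0.09. In both comparisons the sums of fibroblast markers moved in the direction of Vgll3, from 2.18 and 2.51 (Sed) to 3.55 and 3.96 (Ex) and from 2.94 and 2.59 (Wt) to 1.38 and 1.63 (mTg), and their part in it was not tested.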

How the results depend on the processing

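The replicate numbers of the labels only name samples: in the exercise lists same-numbered libraries deviated together weakly (r = 0.14 and 0.11 over regions) and in the transgenic lists they did not (−0.04 and −0.24). With the replicate block, 14 of 14 regions of the 9 genes in Ex and 3 of 3 in mTg kept an adjusted p under 0.05 in limma, as without it. Leaving out 1 library gave 12 to 14 calls of 14 in Ex and 3 of 3 in mTg, a lone library being assumed to vary like the other group. Over the whole list of lower regions in Ex, calls moved from 2274 of 2280 to 1191 without Ex replicate 2, 1860 without Ex replicate 1, 1981 without Sed replicate 1 and 2245 without Sed replicate 2. With the authors' adjusted p under 0.001, 11 of the 17 differential regions remained. Calls over 2-fold apart moved from 15 of 716 matched to 4 of 310 at 80% reciprocal overlap and 32 of 959 at 20%. They moved to 57 of 716 when levels were not divided by width, and ranged from 14 to 23 with 1 replicate left out. The same region can count in several pairs. Shares over all matched regions moved likewise, for EDL and Sol H3K27ac from 2.88% to 1.89% (80%), 4.23% (20%) and 10.2% (not divided by width). The median H3K27ac percentile of 54.2 ranged from 50.4 to 55.3 and the H3K4me2 one of 46.4 from 46.0 to 46.2 with 1 replicate left out of every list. Differences per covered kb were added after seeing the data and turned 3 signs, Vgll4 in Ex (0.031, from −0.60 as a sum), Tead3 in mTg (−0.30, from 0.63) and Vgll2 in mTg (0.16, from −0.0050). With 2 replicates per group and levels normalized within a list, differences between lists have no test here, and a weak region missing from a list may lie just under the authors' threshold.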
